A study of Sus scrofa with 12 samples.

Results

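IRS1, TBC1D7, WIPI1 and ATP6V0D1 are 4 of the 20741 features counted in the muscle RNA of 12 pigs, and they stand at successive steps of one route from insulin to the lysosome. They were found by their Ensembl identifiers, ENSSSCG00000025729, ENSSSCG00000001053, ENSSSCG00000017260 and ENSSSCG00000002776. The genes were chosen by their measured pattern between these same animals. Their drip, sex and interaction values, and how they vary together, are therefore descriptions without a test.

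The animals were 3 females and 3 males with high drip loss and 3 females and 3 males with low drip loss. Drip loss is the fluid that meat gives off after slaughter. The high drip pigs were 167 to 186 days old and the low drip pigs 172 to 189 days old. The labels name neither the muscle, the breed nor the drip value that divided the animals, and each table held 1 animal. No treatment or genotype is given. The study's title names chromosomal regions linked to the water holding capacity of meat.

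Insulin binding activates its receptor, which phosphorylates insulin receptor substrates, and these recruit the lipid kinase that activates AKT. AKT inhibits the TSC complex, which otherwise holds the small GTPase RHEB inactive, and active RHEB switches on the growth kinase mTORC1 on the lysosomal surface. Fed muscle thus makes protein, while low mTORC1 activity permits autophagy, in which membranes enclose cytoplasm and deliver it to acid lysosomes. In this route IRS1 is the receptor's docking protein and TBC1D7 is the third subunit of the TSC complex. WIPI1 binds a phosphoinositide on forming autophagosomes. ATP6V0D1 belongs to the membrane sector of the V-ATPase, the proton pump that acidifies lysosomes.

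Whole-annotation tables held 8009627 to 12622043 counts per animal. For 3 females, high drip replicate 2 and low drip replicates 1 and 2, the table that carries the animal's number in its name is recorded under another animal. Tables were taken here by that number. Each animal's separate table of chromosomal regions shared 737 to 745 of its 770 counts with the whole-annotation table of the same number and at most 167 with any other. Values are also given for the 9 animals without this conflict. Albumin mRNA (ALB), a liver transcript, lay at 26.6 to 311 CPM (counts per 1000000 counts of tested features) in 6 libraries, all 3 high drip females among them, and at 0.352 to 2.35 CPM in the other 6, all 3 low drip females among them. Only 4 of the 15 skeletal muscle markers looked for had an identifier with that symbol, ACTA1, DES, NEB and TNNC2. Their summed level was 86207 to 123930 CPM with high drip and 95685 to 129024 CPM with low drip.

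IRS1 was higher in high drip than in low drip males, while the females overlapped. High drip males had 56.0, 72.8 and 65.5 CPM of IRS1, against 42.5, 35.3 and 39.6 CPM in low drip males. High drip females had 50.5, 75.3 and 48.6 CPM of this docking protein's mRNA, against 46.0, 30.6 and 102 CPM in low drip females. The female with 102 CPM, low drip replicate 3, exceeded all other animals. Without her the low drip animals lay between 30.6 and 46.0 CPM, below every high drip animal. She was set aside here because of her value, and the share of all features that separate without her was not computed. IRS1 averaged 61.5 ± 11.4 CPM with high drip and 49.3 ± 26.2 CPM with low drip (SD, n = 6 each). Its log2 fold, high minus low drip with sex in the fit, was 0.35 ± 0.25 (standard error). It was 0.68 without low drip replicate 3, 0.14 in the 9 animals and -0.03 with the tables as recorded.

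TBC1D7, which stabilises the TSC complex, was lower in every high drip male than in any low drip male. Its level was 27.9, 19.5 and 33.2 CPM in high drip males, against 50.9, 34.3 and 44.3 CPM in low drip males. High drip females had 21.8, 32.9 and 21.7 CPM, against 18.6, 16.5 and 37.3 CPM in low drip females. The 2 lowest values among the 12 animals were thus those of low drip replicates 1 and 2, whose tables carry the conflict, and the drip groups overlapped. TBC1D7 averaged 26.2 ± 6.03 CPM with high drip and 33.7 ± 13.8 CPM with low drip (SD, n = 6 each). The fold was -0.30 ± 0.23 over 12 animals and -0.71 over the 9. It was -0.16 without low drip replicate 3 and -0.62 with the tables as recorded.

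WIPI1, the autophagosome protein, had the smallest spread of the 4 genes. High drip males had 38.2, 39.7 and 34.4 CPM of WIPI1, against 46.4, 43.7 and 51.5 CPM in low drip males. In females it was at 39.2, 30.4 and 37.8 CPM with high drip, against 32.3, 40.4 and 55.7 CPM with low drip. No high drip animal exceeded 39.7 CPM, and 5 of the 6 low drip animals did. The exception was low drip replicate 1, at 32.3 CPM. WIPI1 averaged 36.6 ± 3.59 CPM with high drip and 45.03 ± 8.28 CPM with low drip (SD, n = 6 each), with a fold of -0.30 ± 0.13. The fold was -0.40 in the 9 animals, -0.19 without low drip replicate 3 and -0.17 with the tables as recorded. In RefSeq's Sscrofa11.1 annotation WIPI1 overlaps ARSG, a lysosomal sulfatase gene, and the library kit does not mark strand. ARSG had 3 to 12 counts per library, against 296 to 575 for WIPI1.

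ATP6V0D1, the pump subunit, had overlapping levels at both drip levels, and 1 animal stood far above the others. It was at 30.3, 38.1 and 40.04 CPM in high drip males, against 33.4, 26.9 and 30.8 CPM in low drip males. High drip females had 39.3, 35.6 and 32.2 CPM, against 41.1, 28.1 and 93.5 CPM in low drip females. The value of 93.5 CPM again came from low drip replicate 3, and the next highest animal had 41.1 CPM. ATP6V0D1 averaged 35.9 ± 3.97 CPM with high drip and 42.3 ± 25.6 CPM with low drip (SD, n = 6 each), and 32.1 ± 5.63 CPM in low drip animals without that female (n = 5). Its fold of -0.18 ± 0.25 became 0.17 without her, and it was -0.29 in the 9 animals.

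**Figure D1:**
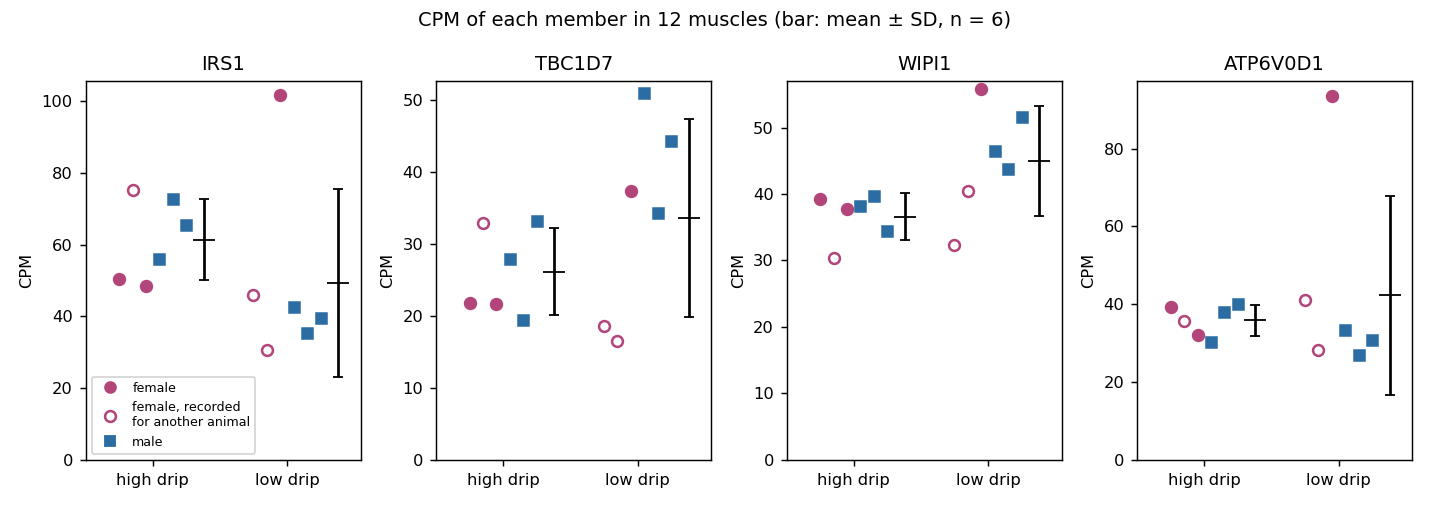
CPM of the 4 genes in each of 12 muscles, high drip left and low drip right in each panel, with circles for females, squares for males, open circles for the 3 females whose tables carry a record conflict, and black bars for the mean ± SD (n = 6). IRS1 at 102 CPM and ATP6V0D1 at 93.5 CPM in low drip replicate 3 stand above all other animals, and the high drip WIPI1 values end at 39.7 CPM.

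With high set against low drip in males alone, IRS1, TBC1D7 and WIPI1 each had 3 animals wholly on one side of the other 3, IRS1 upward and the others downward. ATP6V0D1 had overlapping males. Such a separation of males was found for 9.64% of the 10627 features tested, so for single genes it is common, and these 4 were chosen for their pattern between the animals. In females 0 of the 4 genes separated, against 6.91% of all features. Over all 12 animals 0 of the 4 separated, against 0.113%. In the 9 animals without the record conflict TBC1D7 and WIPI1 separated, against 0.696% of all features. Nothing is read from these shares, since the same values entered the choice.

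The drip folds within each sex show the same split. In males the fold was 0.72 ± 0.33 for IRS1, -0.68 ± 0.30 for TBC1D7, -0.34 ± 0.18 for WIPI1 and 0.25 ± 0.32 for ATP6V0D1. In females it was -0.03 ± 0.33 for IRS1, 0.09 ± 0.30 for TBC1D7, -0.26 ± 0.19 for WIPI1 and -0.60 ± 0.32 for ATP6V0D1. The male and female folds lay closest together for WIPI1. In the 9 animals the female folds rest on 2 high drip animals and 1 low drip animal, low drip replicate 3, so the fit assumes that it varies like the other groups. They were then -1.02 ± 0.20 for IRS1 and -1.37 ± 0.23 for ATP6V0D1. That of TBC1D7 turned to -0.76 ± 0.32, and that of WIPI1 was -0.52 ± 0.19. A single low drip female thus stood against the high drip females for all 4 genes.

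**Figure D2:**
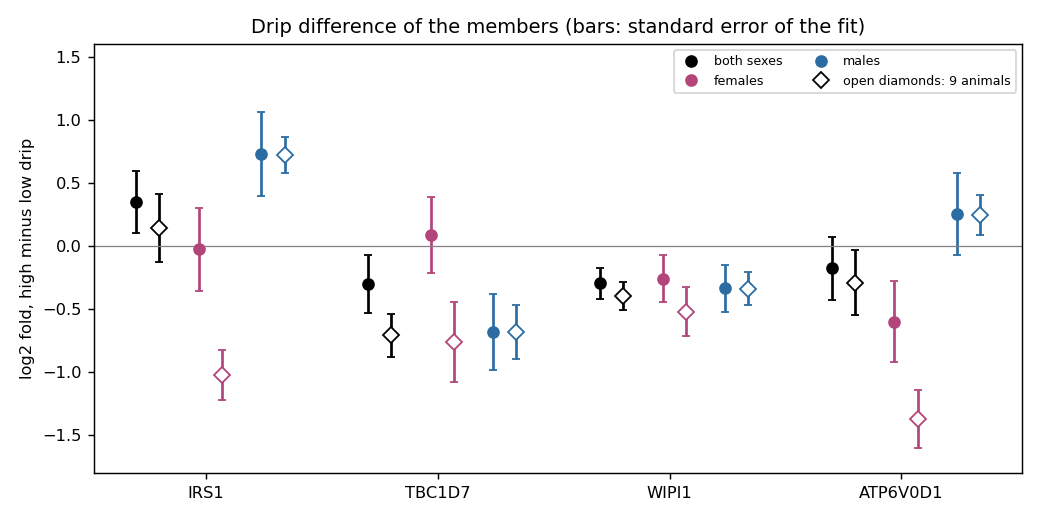
Log2 folds of high minus low drip for both sexes, for females and for males, with filled circles for all 12 animals, open diamonds for the 9 without a record conflict, and bars for the standard error of the fit. The female IRS1 fold lies at -0.03 with 12 animals and at -1.02 with 9. The male folds rest on the same males in both settings, so their closeness is no check on them.

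The interaction, the high minus low fold in males less that in females, was 0.75 ± 0.47 for IRS1 and 0.85 ± 0.46 for ATP6V0D1. For TBC1D7 it was -0.77 ± 0.43 and for WIPI1 -0.08 ± 0.26. In the 9 animals these values were 1.75 for IRS1, 1.62 for ATP6V0D1, 0.08 for TBC1D7 and 0.18 for WIPI1. Without low drip replicate 3 the interaction was 0.11 for IRS1, 0.20 for ATP6V0D1 and -1.23 for TBC1D7. With libraries split by ALB as a term it was 0.42 for IRS1 and 0.46 for ATP6V0D1. ALB separates all high drip from all low drip females, so in females drip and liver transcripts cannot be told apart.

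**Figure D3:**
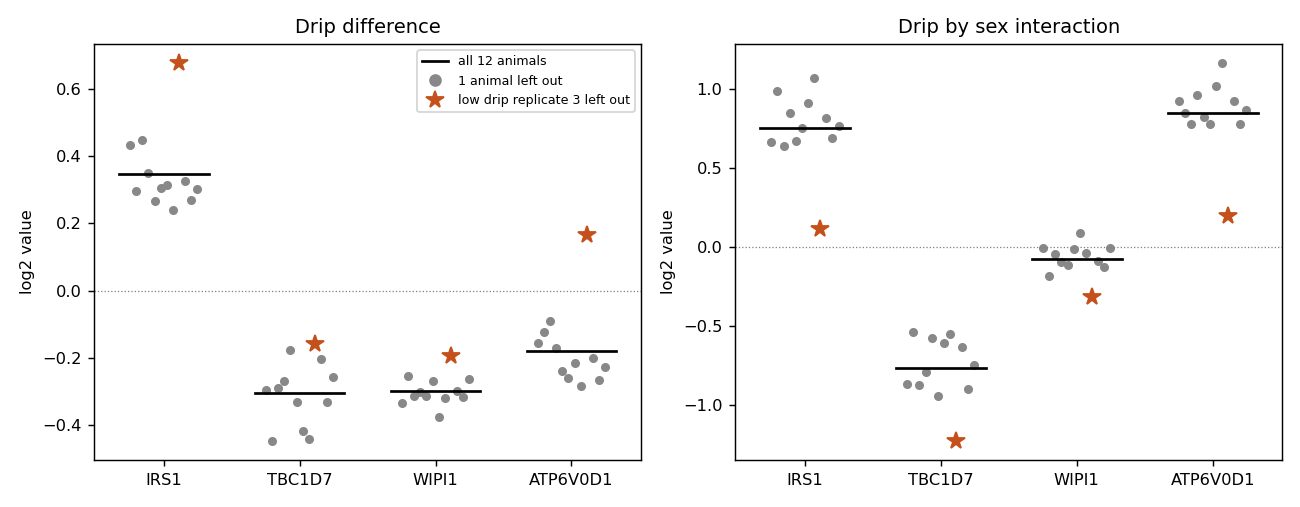
Drip difference (left) and drip by sex interaction (right) of each gene on the log2 scale, with a black line for all 12 animals, a grey point for each fit without 1 animal and a star for the fit without low drip replicate 3. The star is the point farthest from the line for both values of IRS1 and ATP6V0D1, with the ATP6V0D1 drip fold at 0.17 against -0.18 with all animals.

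Between the sexes, TBC1D7 averaged 35.0 ± 11.3 CPM in males and 24.8 ± 8.34 CPM in females (SD, n = 6 each), a log2 fold of 0.46 ± 0.23, male minus female. With low drip it averaged 43.2 CPM in males and 24.1 CPM in females, and with high drip 26.8 and 25.5 CPM (n = 3 each). Low drip replicates 1 and 2, both females, carry the record conflict, and in the 9 animals the TBC1D7 fold was 0.27. ATP6V0D1 averaged 33.2 ± 4.999 CPM in males and 44.96 ± 24.2 CPM in females, and without low drip replicate 3 its fold went to -0.07, against -0.41 with her. IRS1 had a fold of -0.22 ± 0.25 and WIPI1 one of 0.10 ± 0.13. For sex, 0 of 10627 features passed in edgeR (0%). An unadjusted p under 0.05 was found for 681 features, and DESeq2 called 2. The sign of the IRS1 fold turned to 0.10 without low drip replicate 3 and to 0.01 with age as a term, and that of WIPI1 to -0.12 in the 9 animals.

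IRS1 spanned 3.32-fold from its lowest to its highest animal, TBC1D7 3.08-fold, WIPI1 1.84-fold and ATP6V0D1 3.48-fold. Counting error alone gives a coefficient of variation of at most 7.81%, in the library with 164 counts of TBC1D7. The measured coefficients over 12 animals were 36.7% for IRS1, 36.3% for TBC1D7, 18.4% for WIPI1 and 45.5% for ATP6V0D1, against a median of 21.1% over all features tested. Within drip and sex groups the SD of log2 CPM was 0.49 for IRS1, above 80.8% of features, and 0.23 for WIPI1, above 33.5%.

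Low drip replicate 3 was the oldest pig, at 189 days, and had the highest IRS1, WIPI1 and ATP6V0D1 of the 12. It was the highest of the 12 for 11.05% of all features tested, so a gene peaking in it is not rare. In its library the summed adipocyte markers PLIN1, CIDEC, PLIN4, LIPE and CFD reached 310 CPM. Across all animals the sum of these 5 markers spanned 178 to 236 CPM with high drip and 160 to 310 CPM with low drip. Of the 8 adipocyte markers looked for, just these 5 had an identifier with that symbol, and PLIN1 was a small part of their sum. The peak of the sum did not hold for PLIN1 alone. It was at 6.45 CPM in low drip replicate 3, within 3.20 to 16.4 CPM over all animals, with the highest value in low drip replicate 6. The 6 macrophage markers, from a cell type rich in lysosomes, were at 39.5 CPM in that library, within 30.9 to 96.6 CPM with high drip and 39.5 to 84.4 CPM with low drip. Endothelial markers summed to 193 to 290 CPM with high drip and 184 to 268 CPM with low drip, and fibroblast markers to 2870 to 5477 CPM with high drip and 3464 to 4724 CPM with low drip. The 13 liver markers summed to 4.39 to 552 CPM with high drip and 3.99 to 95.6 CPM with low drip. With age as a term the interaction was 0.50 for IRS1 and 0.62 for ATP6V0D1.

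Of the relations between the genes and the marker lists, that of TBC1D7 with the adipocyte markers was the closest. It had r = 0.78 and rho = 0.79, given without a test. Without the 2 animals farthest from the markers' median r was 0.76. The r of 0.78 was the highest of the 24 relations computed between the 4 genes and 6 marker lists. The genes were chosen by their pattern between these animals, and drip and sex group means were not removed. Nothing is therefore read from these r values. For WIPI1, IRS1 and ATP6V0D1 the adipocyte r was 0.61, 0.59 and 0.56. Those of IRS1 and ATP6V0D1 were 0.10 and -0.21 without the 2 farthest animals, low drip replicates 3 and 2, on which they rest. In whole muscle, a shift in the share of a cell type and a shift in the RNA of each cell cannot be told apart, and the part of fat cells in these values was not tested.

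Among the 6 pairs of the 4 genes, IRS1 and ATP6V0D1 varied most closely over the 12 animals, with r = 0.77 and rho = 0.67 for log2 CPM, given without a test. Without low drip replicate 3 the pooled r was 0.65. It was 0.83 in the 6 males and 0.81 in the 6 females. TBC1D7 and WIPI1 followed with a pooled r of 0.49 and rho of 0.52. For IRS1 and WIPI1 the pooled r of -0.04 rested on 1 animal, and without low drip replicate 3 it was -0.59: the other muscles with more IRS1 tended to have less WIPI1. IRS1 and TBC1D7 had a pooled r of 0.14, which was -0.74 in the 6 males, 0.97 in the 6 females and -0.25 in the 9 animals. A pooled r includes the difference between drip groups, which in males separated both genes. The 6 females include all animals whose tables carry the record conflict. The pooled r of WIPI1 and ATP6V0D1 was 0.32, and -0.55 without low drip replicate 3. TBC1D7 and ATP6V0D1 had 0.13, and -0.20 without that animal.

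What remained after removing the means of the 4 drip and sex groups is given as a residual r, again as a description. The residual r of IRS1 and ATP6V0D1 was 0.92, with a rho of 0.73. For IRS1 and TBC1D7 the residual r was 0.78, with a rho of 0.61. Without low drip replicate 3 the residual r of these pairs was 0.67 and 0.45. The residual r of TBC1D7 and ATP6V0D1 was 0.73, that of WIPI1 and ATP6V0D1 0.60, that of IRS1 and WIPI1 0.43 and that of TBC1D7 and WIPI1 0.30. Without low drip replicate 3 the residual r of IRS1 and WIPI1 was -0.67.

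**Figure D4:**
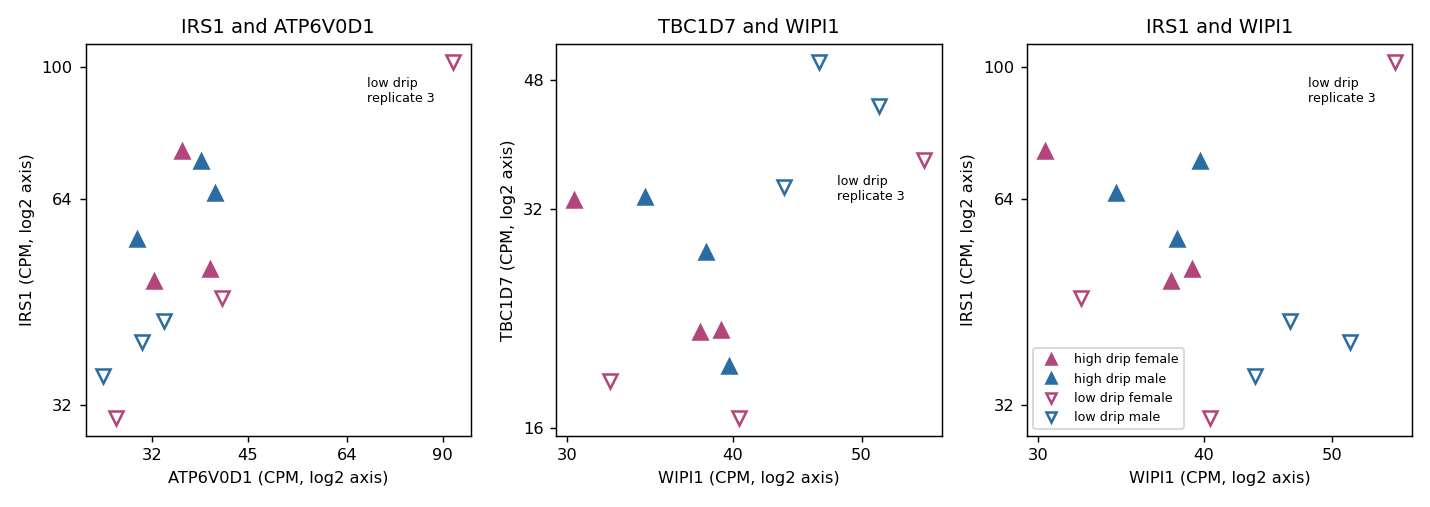
CPM of 3 gene pairs in the 12 muscles on log2 axes, with filled upward triangles for high drip and open downward triangles for low drip animals, coloured by sex. IRS1 and ATP6V0D1 (left) run together with a pooled r of 0.77, and low drip replicate 3 lies at the upper right of the IRS1 and WIPI1 panel (right), against a downward trend of the other animals.

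Of 7338 genes with a symbol, those most like IRS1 over the 12 animals by Pearson's r of log2 CPM were PRR14 (r = 0.90), PFN1 (0.88), which encodes the actin-binding profilin, and ASB2 (0.87), a ubiquitin ligase subunit of muscle. They kept an r of 0.81 to 0.86 without low drip replicate 3. For TBC1D7 they were EPG5 (0.84), which acts in the fusion of autophagosomes with lysosomes, NKIRAS1 (0.80) and PTGR2 (0.79). For WIPI1 they were PTPN21 (0.87), the transcription factor gene NFE2L1 (0.87), and LRIG1 (0.85), a membrane protein that restrains growth factor receptors. ATP6V0D1 was most like EIF2B4 (0.92), a subunit of the exchange factor for translation initiation, SYPL2 (0.90) and ARHGEF11 (0.89). These r values were 0.68, 0.74 and 0.60 without low drip replicate 3, which was highest for all 3 genes. The r values are a description with no test.

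The other genes of the route came from 6 lists, with the 4 genes left out. For drip, 0 of 10627 features passed in edgeR (0%), 380 had an unadjusted p under 0.05, and DESeq2 also called 0. The median fold of all features was 0.00. The insulin receptor list had 23 tested genes, 7 with a positive and 16 with a negative fold, and a median of -0.13. ENPP1, a membrane enzyme that inhibits the receptor, averaged 22.1 ± 4.28 CPM with high drip and 28.9 ± 6.80 CPM with low drip (SD, n = 6 each; fold -0.39 ± 0.17). SH2B2, an adaptor of the receptor, averaged 4.11 ± 1.38 CPM with high drip and 2.94 ± 0.43 CPM with low drip (fold 0.44 ± 0.20). Its fold was 0.79 ± 0.26 in females, where drip and liver transcripts cannot be told apart, and 0.08 ± 0.26 in males. The receptor INSR itself had a fold of -0.37 ± 0.21 and the kinase AKT2 one of -0.13 ± 0.11. IRS2, PIK3R1 and FOXO1 had no identifier with that symbol.

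The TSC and mTORC1 list had 30 tested genes, 13 positive and 17 negative, with a median fold of -0.05. DDIT4L, an inhibitor of mTORC1 signalling, averaged 305 ± 96.6 CPM with high drip and 527 ± 221 CPM with low drip (fold -0.77 ± 0.25, edgeR adjusted p = 0.999). TSC2, the catalytic partner of TBC1D7's complex, had a fold of 0.10 ± 0.12. Its target RHEB had 0.08 ± 0.09, MTOR -0.07 ± 0.11, RPTOR -0.09 ± 0.12 and MAPKAP1 0.21 ± 0.11. TSC1 and DDIT4 had no identifier with that symbol.

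Autophagy genes had a median drip fold of 0.01 over 32 tested genes, 18 positive and 14 negative. WIPI2, the close relative of WIPI1, averaged 43.1 ± 6.62 CPM with high drip and 42.0 ± 7.42 CPM with low drip, with a fold of 0.04 ± 0.13 against -0.30 ± 0.13 for WIPI1. ATG16L1, which WIPI2 recruits, had 0.03 ± 0.12. The membrane marker MAP1LC3B had 0.06 ± 0.10, the cargo receptor SQSTM1 0.18 ± 0.18, ATG3 -0.18 ± 0.10 and ATG4D 0.20 ± 0.12. TFEB, the regulator of lysosomal genes, had 0.01 ± 0.12.

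The V-ATPase list had 8 tested genes, 4 in each direction, with a median fold of 0.02. Its ATP6V1A, ATP6V1H and ATP6V0A1 had folds of 0.08, -0.05 and -0.03. ATP6V0A2 had -0.20 and ATP6V1G2, at 2.67 ± 0.82 CPM with high drip and 1.73 ± 0.91 CPM with low drip, 0.67 ± 0.34. In low drip replicate 3 0 of these 8 partners of ATP6V0D1 were at their highest and 1, ATP6V0A2, was at its lowest. Of all 10627 features tested, 1174 were at their highest and 1343 at their lowest in this animal. With 8 genes, nothing is read from these counts. ATP6V1H was at 49.98 CPM in low drip replicate 3 and ATP6V0A1 at 44.7 CPM, against means of 44.4 and 45.7 CPM in high drip animals. ATP6V0C had no identifier with that symbol, nor had LAMP1 of the lysosomal membrane. Lysosomal membrane and hydrolase genes had 14 positive and 8 negative folds and a median of 0.07, with 0.27 ± 0.18 for SMPD1. Of the 5 FOXO targets tested, 4 had a negative fold and the median was -0.24. The ubiquitin ligase gene TRIM63 averaged 648 ± 203 CPM with high drip and 912 ± 276 CPM with low drip (fold -0.50 ± 0.23), and CITED2 had -0.24 ± 0.29. In none of the 6 lists did a gene pass for drip. An unadjusted edgeR p under 0.05 was found for 2 of 23 insulin receptor genes, SH2B2 and ENPP1. It was found for 1 of 30 TSC and mTORC1 genes, DDIT4L. None was found among 32 autophagy, 8 V-ATPase, 22 lysosomal and 5 FOXO target genes, against 380 of 10627 features (3.58%). Nothing is read from these counts.

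**Figure D5:**
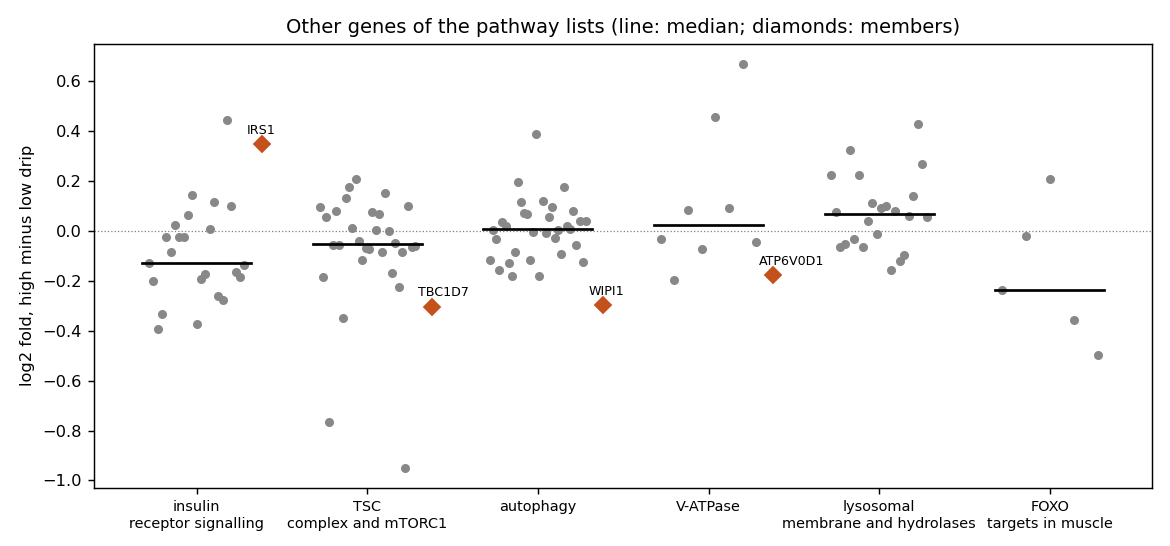
Log2 fold of high minus low drip for each tested gene of 6 lists (grey points), with a black line for the list's median and diamonds for the 4 genes this text follows, which were left out of the lists. The medians run from -0.24 for FOXO targets to 0.07 for lysosomal membrane and hydrolase genes.

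For the interaction, 0 of 10627 features passed in edgeR (0%), 371 had an unadjusted p under 0.05, and DESeq2 called 7. List medians were -0.10 for insulin receptor signalling, -0.01 for TSC and mTORC1, 0.00 for autophagy, 0.09 for the V-ATPase, 0.14 for lysosomal genes and -0.48 for FOXO targets, against 0.00 for all features. SESN2, which senses leucine and restrains mTORC1, averaged 5.70 ± 2.21 CPM in males with high drip and 4.64 ± 0.60 CPM in males with low drip. Low drip females differed widely, with 71.1 CPM in replicate 2 and 4.34 CPM in replicate 3. The tables of replicates 1 and 2 carry the record conflict, and replicate 3 is the only low drip female without it. The mean of low drip females rests mainly on the tables with the conflict. In females SESN2 averaged 8.91 ± 4.39 CPM with high drip and 35.2 ± 33.7 CPM with low drip (SD, n = 3 each), and its interaction was 2.29 ± 0.97 (edgeR adjusted p = 1.00). GSK3B, a kinase that AKT inhibits, had an interaction of -0.60 ± 0.27. MITF, a relative of TFEB at only 1.17 to 2.96 CPM, had one of -0.96 ± 0.44. RRAGD and SH2B2 had -0.38 and -0.72, and TFEB 0.38. ATP6V1H and ATP6V0A1, partners of ATP6V0D1, had 0.41 and 0.32, TPP1 and CTNS of the lysosome 0.42 and 0.64, and MSTN and CITED2 -0.94 and -0.69.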

How the data were processed

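RNA was extracted from muscle with Trizol and sequenced from TruSeq v2 libraries, a kit that does not mark strand, per the labels' protocols. The authors deposited raw counts per feature, made with TopHat2 2.0.3, Bowtie 0.12.7.0 and HTSeq on build Sscrofa10.2, per the submitters' processing notes; the strand setting and annotation release are not given in the sources used here. The last 5 lines of each table name no gene, held 39.9% to 44.4% of alignments and were left out.

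Symbols matched 10349 of 20300 Ensembl identifiers. No promoter or protein sequence was used here. Tables were assigned to animals by the number in their name. Counts were filtered with filterByExpr, scaled with TMM and tested with the quasi-likelihood F-test of edgeR 4.0.16 in R 4.3.3. It was two-sided, adjusted by Benjamini-Hochberg over all features and read at 0.05. All 12 animals entered, with sex and drip as terms, and their product for the interaction. DESeq2 1.42.0 was an alternative. CPM values use the TMM-scaled totals of tested features, with a prior count of 2 on the log2 scale. The fits were tested on simulated data.

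The 4 genes and all lists were chosen with earlier results of these data known. No p is therefore given for the 4 genes' sex difference, their residual r or their relations to the marker lists. Other genes named are 20 fixed partners where tested, the 2 smallest p per list for drip and for the interaction, and the 3 most alike per gene; a gene that this rule names is not reported here. Labels do not say that animals were independent of litter. The p-values set a group difference against the spread between animals, which edgeR moderates across features. They treat the animals as independent, which could not be checked.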

Additional observations from a re-analysis of the deposited data

Results flagged for a closer look

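Among 98 drip groups of 6 animals examined for 49 named genes, 9 held 1 animal far from the other 5, where chance flags about 1 group in 20. Many of these genes were named because of their values, and the rate over all features was not computed. Nothing is therefore read from the number flagged. In low drip replicate 3, IRS1 reached 102 CPM, while the remaining low drip animals had 30.6 to 46.0 CPM. ATP6V0D1 was at 93.5 CPM in it, against 26.9 to 41.1 CPM. The same animal had 27.3 CPM of EIF2B4, against 14.4 to 18.9 CPM, and 251 CPM of SYPL2, against 130 to 170 CPM. Both genes were named for a high r with ATP6V0D1 that includes this animal. DDIT4L reached 972 CPM in low drip replicate 6, against 373 to 475 CPM. CITED2 was at 33.7 CPM in low drip replicate 4, against 9.23 to 16.2 CPM. High drip replicate 5 had 13.6 CPM of ENPP1, against 21.9 to 25.2 CPM, and 61.8 CPM of TPP1, against 40.4 to 46.3 CPM. AKT2 was at 193 CPM in high drip replicate 2, against 121 to 143 CPM.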

How the results depend on the processing

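The drip count stayed at 0 under all 20 alternatives tried. For sex, 2 features passed with DESeq2 and 1 without the filter on low counts; for the interaction, 7 passed with DESeq2 and 1 with liver transcripts as a term. The cause was not tested. Leaving out each animal in turn gave 0 for all 3 comparisons. TBC1D7 and WIPI1 kept a negative drip fold throughout, from -0.71 to -0.16 and from -0.40 to -0.17. The IRS1 drip fold changed sign only with the tables as recorded, to -0.03, and that of ATP6V0D1 only without low drip replicate 3, to 0.17. Interactions of IRS1 and ATP6V0D1 stayed positive, and in the 9 animals those of TBC1D7 and WIPI1 were 0.08 and 0.18. In the 9 animals low drip replicate 3 is the only low drip female, so it equals its group mean and adds nothing to a residual r. There the residual r reversed to -0.036 for IRS1 with TBC1D7 and to -0.25 for TBC1D7 with WIPI1. Without the 2 farthest animals the residual r reversed to -0.53 for IRS1 with WIPI1 and -0.38 for WIPI1 with ATP6V0D1. With 1 animal left out it ran from 0.67 to 0.98 for IRS1 with ATP6V0D1, 0.45 to 0.95 for IRS1 with TBC1D7, 0.27 to 0.85 for TBC1D7 with ATP6V0D1, -0.67 to 0.68 for IRS1 with WIPI1, -0.56 to 0.56 for TBC1D7 with WIPI1 and -0.33 to 0.76 for WIPI1 with ATP6V0D1; the lowest value of each was without low drip replicate 3. The 2 likeness checks without that animal and in the 9 were added after the data were seen. No paired analysis was run, because the labels do not pair animals between the groups. The replicate numbers used here only name the animals.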

Other observations

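For sex, 0 genes of the 6 lists passed in edgeR. Unadjusted p-values below 0.05 belonged to 4 of 23 insulin receptor genes, 4 of 30 TSC and mTORC1 genes, 2 of 32 autophagy genes, 0 of 8 V-ATPase genes, 4 of 22 lysosomal genes and 0 of 5 FOXO targets, against 681 of 10627 features. Among the lysosomal genes, and named after their values were seen, SCARB2 and NPC1 had log2 folds, male minus female, of 0.39 and 0.43, and MAN2B1 one of -0.32. NPC1 exports cholesterol from lysosomes, and SCARB2 is a protein of their membrane.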
